A study of Mus musculus with 15 samples.

Results

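The Kruppel-like factors were followed in mouse primary hepatocytes given cAMP or glucagon, alone or together with IL-13. The members were the 10 genes Klf2, Klf3, Klf4, Klf6, Klf9, Klf10, Klf11, Klf13, Klf15 and Klf16, matched by gene symbol among the 24347 entries of the expression table, in which 17 symbols of this family are listed. Bulk RNA sequencing was available for 15 libraries of wild type cells in 5 groups of 3. Recombinant IL-13 at 10 ng/mL was given to 2 of the groups, starting 2 h before the stimulus and kept on during it. The stimulus was 100 µM cAMP or 100 nM glucagon for 3 h, with or without this IL-13, which gives 4 stimulated groups beside the unstimulated vehicle group. IL-13 was never given alone. The strain label differs from library to library and from the strain named in the methods of the study, and was not used. Nothing states whether the libraries within a group were made from different mice or different cultures, so every p-value here measures a library-to-library spread that could be technical only. These are cultured cells taken from digested liver, so markers of other liver cells were also read.

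Kruppel-like factors are zinc finger transcription factors that bind GC-rich and CACCC sequences in promoters, and they differ mainly in the cofactors that their other end recruits. Klf2, Klf4 and Klf6 belong to a group that binds acetyltransferases and can activate transcription, Klf3 recruits the corepressor CtBP, and Klf9, Klf10, Klf11, Klf13 and Klf16 recruit the SIN3 corepressor. In liver, Klf15 is known as a fasting-responsive factor for amino acid breakdown and gluconeogenesis, while glucagon acts on hepatocytes through cAMP and the factor CREB.

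Levels are given in 2 units. Scaled reads are the authors' estimated reads per gene, brought to a common depth by 1 factor per library, and serve to compare libraries for a single gene. FPKM also divides by transcript length and serves to compare genes. The tests used limma on log2(scaled reads + 1) over 12703 genes that reached 10 scaled reads in 3 or more libraries, and "rose" and "fell" are used where the adjusted p was under 0.05. All 10 members passed this filter.

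The libraries held 15567691 to 24246082 reads as recovered from the table. The vehicle library a stood apart: its median squared difference from vehicle b and vehicle c was 11.3 and 10.7 times the counting noise, against 1.3 to 4.70 in all other replicate pairs. As a check of the treatments, G6pc, the enzyme that releases glucose, rose 4.25 on the log2 scale with cAMP and 3.10 with glucagon, and Cish, a STAT target, rose 1.80 and 1.91 when IL-13 was added to each. The 7 hepatocyte markers summed to 19383 to 23525 FPKM per library. The 7 endothelial markers summed to 14.7 to 19.8 FPKM, the 7 Kupffer cell markers to 151 to 183 and the 5 cholangiocyte markers to 569 to 655. The sums were 1.14 to 1.78 FPKM for the 6 stellate cell markers and 0.490 to 0.862 FPKM for the 4 T, B and NK cell markers. Of the cholangiocyte markers, Krt7 and Epcam were below the filter, and Krt7 had no reads in any glucagon with IL-13 library. A sum can rest on few of its markers, so it does not measure the share of a cell type.

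Klf6 was the most abundant of the 10 factors per transcript length in all 5 groups, and its lead was widest in the unstimulated cells. In vehicle it averaged 67.5 FPKM, which was 50.6% of the summed FPKM of the 10 genes, whereas Klf4 held 1.02% and Klf15 held 0.972%. With cAMP, Klf6 averaged 25.9 FPKM and 25.3% of the sum, and Klf4 averaged 8.58 FPKM and 8.38%. The share of Klf4 reached 11.5% with cAMP and IL-13. Klf3 ranked second everywhere, from 19.9 FPKM with glucagon to 25.0 FPKM in vehicle, and Klf10 came next, from 11.7 to 14.5 FPKM. Klf2 was last in every group, at 0.519 to 0.809 FPKM. The sum of the 10 genes was 121 to 143 FPKM in the vehicle libraries and 96.2 to 117 FPKM in the 12 stimulated libraries, and the vehicle values were all higher. Klf6 weighs heavily in this sum, with means of 67.5 FPKM in vehicle and 25.2 to 37.5 FPKM in the stimulated groups. The lower sum therefore does not show that the other members fell, and Klf4, Klf9 and Klf15 had higher means in every stimulated group. No test was run on these shares.

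**Figure D1:**
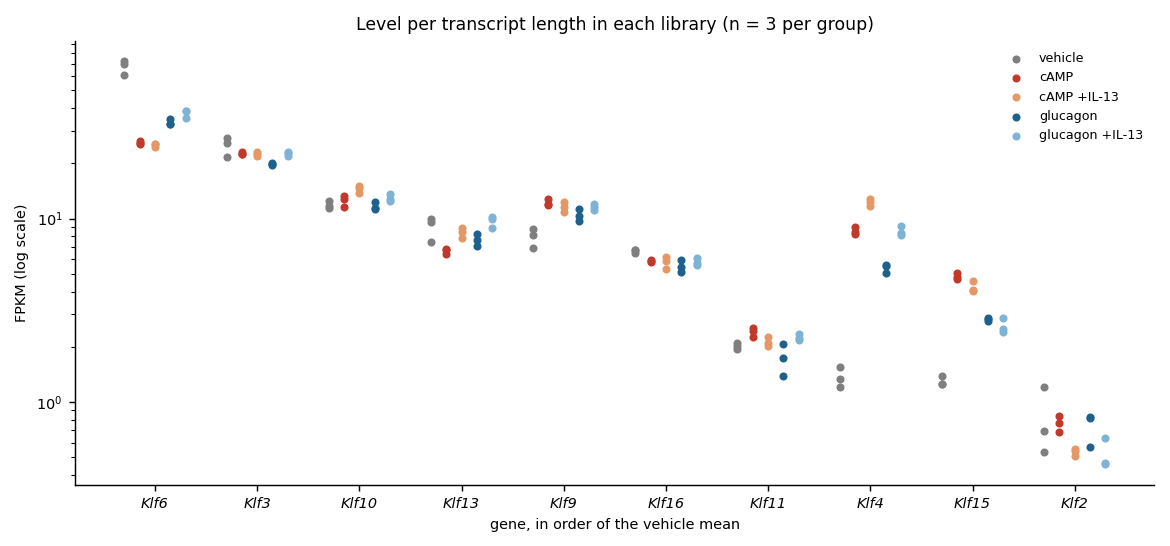
FPKM on a log axis for the 10 factors, ordered along the x axis by their vehicle mean, with 1 point per library and 1 colour per group (n = 3). Klf6 fell from a vehicle mean of 67.5 FPKM to 25.9 FPKM with cAMP, while Klf4 and Klf15 moved up from 1.36 and 1.297 FPKM to 8.58 and 4.85 FPKM.

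The first question was how the stimuli acted on these factors. The members, and the gene lists used further on, were chosen with earlier results of these data known. Their counts beside the share of all genes are therefore a description and no evidence about the family. With cAMP, 3 of the 10 genes rose (Klf4, Klf15 and Klf9) against 13.0% of all genes tested, and 2 fell (Klf6 and Klf13) against 12.8%. With glucagon the same 3 genes rose, against 9.35% of all genes, and 3 fell (Klf6, Klf3 and Klf16), against 9.53%. Of these falls, 1 remained without vehicle b, without vehicle c, or when the compared groups alone were fitted. The median log2 difference of the 10 genes was 0.08 with cAMP and -0.13 with glucagon, beside 0.01 and 0.02 over all genes tested. These 10 genes thus did not all move one way. The balance of rises and falls among all genes depended on the scaling: by library size alone 1265 genes were higher and 2147 lower with cAMP, in place of 1648 and 1624, and 956 were higher and 1502 lower with glucagon, in place of 1188 and 1211. The counts of members that rose and fell were the same under both scalings. These 2 comparisons share the vehicle libraries. IL-13 moved fewer members: Klf4 rose in cAMP-treated cells (1 of 10 genes, beside 2.52% higher and 1.38% lower among all genes) and in glucagon-treated cells (1 of 10, beside 3.50% higher and 2.23% lower), and no member fell.

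**Figure D2:**
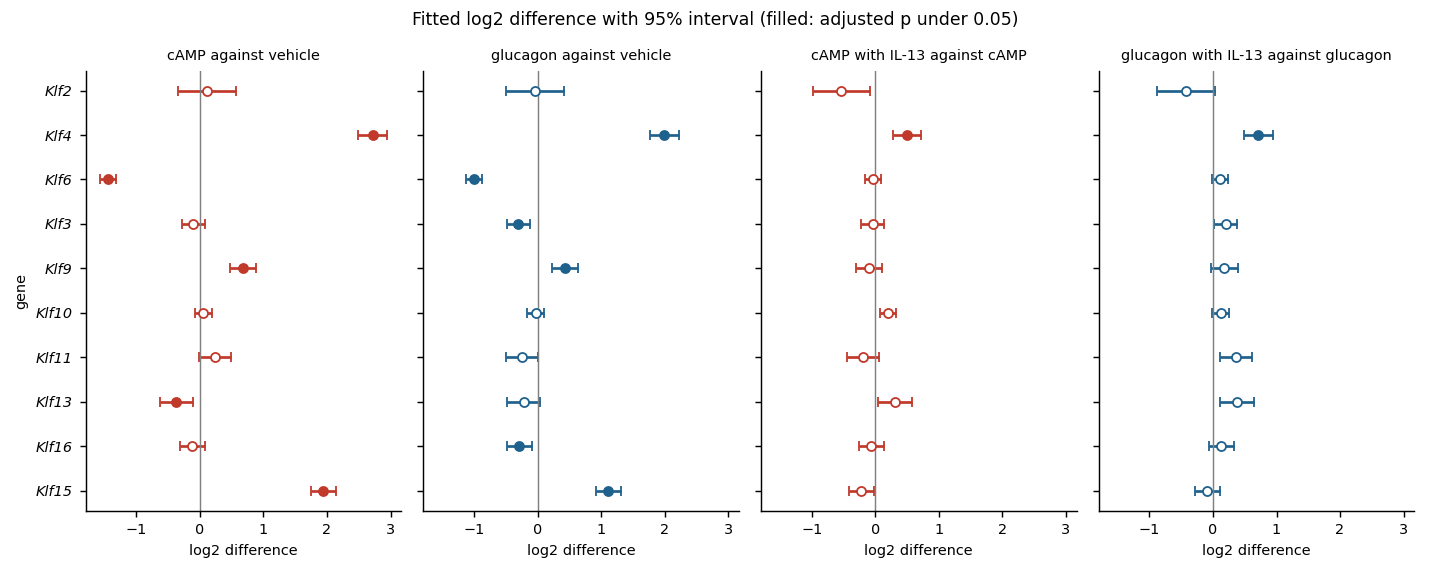
Log2 differences of the 10 factors (x axis) with 95% intervals in 4 comparisons, fitted with limma on log2(scaled reads + 1) over 15 libraries, filled where the adjusted p was under 0.05. Klf4 lies at 2.72 and 2.00 for the stimuli and at 0.50 and 0.71 for IL-13, and Klf6 at -1.44 and -1.0 for the stimuli.

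Because cAMP signalling reaches genes through CREB, and IL-13 through STAT factors, the bases just before the transcript start were read for the 3 genes that rose with both stimuli. They are shown so that the results can be read beside the letters present. The 250 bases come from the RefSeq promoter table (build GRCm38.p6), which matched 8 of the 10 members, all but Klf10 and Klf16, and run 5′ to 3′ up to the base before the start. Capitals mark the CREB core TGACG or CGTCA, the STAT pattern TTCNNNGAA and the CACCC box (CACCC or GGGTG), searched on both strands.
Klf4, chr4:55532476-55532725, minus strand: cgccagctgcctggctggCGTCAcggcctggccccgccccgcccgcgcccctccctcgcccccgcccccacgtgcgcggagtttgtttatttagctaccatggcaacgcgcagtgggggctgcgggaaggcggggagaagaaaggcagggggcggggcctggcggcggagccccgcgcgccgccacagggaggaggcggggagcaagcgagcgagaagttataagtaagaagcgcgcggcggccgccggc
Klf15, chr6:90462326-90462575, plus strand: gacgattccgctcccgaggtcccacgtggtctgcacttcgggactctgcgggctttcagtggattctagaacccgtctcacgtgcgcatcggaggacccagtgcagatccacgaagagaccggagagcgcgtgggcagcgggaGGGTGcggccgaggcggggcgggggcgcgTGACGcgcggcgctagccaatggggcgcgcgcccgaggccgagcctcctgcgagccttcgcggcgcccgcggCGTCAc
Klf9, chr19:23140976-23141225, plus strand: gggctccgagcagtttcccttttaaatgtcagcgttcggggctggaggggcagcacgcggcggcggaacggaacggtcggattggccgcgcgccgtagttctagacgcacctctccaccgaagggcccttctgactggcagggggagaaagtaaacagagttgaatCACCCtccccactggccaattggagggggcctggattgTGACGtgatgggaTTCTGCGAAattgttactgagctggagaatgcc

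In the Klf4 stretch the CREB core lies 232 to 228 bases before the start. The Klf15 stretch holds it at 78 to 74 and at 6 to 2 bases before the start, and a CACCC box at 107 to 103. The Klf9 stretch holds the CREB core at 46 to 42 bases, the STAT pattern as TTCTGCGAA at 33 to 25 bases, and a CACCC box at 84 to 80. The CREB core was also present once each for Klf13 and Klf2, and none of these patterns was found for Klf6 or Klf11. The full palindrome TGACGTCA, which contains the core, was found in none of the 8 stretches and in 1.55% of all 32851 promoters. The core was in 17.8% of all promoters, the STAT pattern in 7.02% and the CACCC box in 52.0%. The Klf3 stretch held 5 CACCC boxes. The RefSeq starts do not all match the GENCODE M21 gene starts. For Klf15, Klf9 and Klf13 the stretch ends at the base before the gene start, and for Klf4 it stops further upstream. The stretches of Klf2, Klf3, Klf6 and Klf11 run past the gene start, so part of each lies within the annotated gene. These matches describe letters and say nothing on whether a factor binds there.

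Klf4, a factor best known for epithelial differentiation and for reprogramming cells to pluripotency, showed the widest range of the 10 genes (chr4:55527143-55532466, minus strand, GRCm38). It was at 88.2, 114 and 131 scaled reads in vehicle a, b and c. It reached 720.2, 752 and 708 with cAMP, and 433, 474 and 417 with glucagon. All 6 libraries with a stimulus alone were above all 3 vehicle libraries, and the cAMP libraries were above the glucagon libraries. Klf4 rose 6.57-fold with cAMP (log2 2.72 ± 0.11 SE, adjusted p = 1.14e-12) and 3.99-fold with glucagon (log2 2.00 ± 0.11, adjusted p = 1.41e-10). These folds are on the log2(scaled reads + 1) scale, which understates the change of low genes, and in bulk RNA a change in RNA per cell and a change in the number of cells of a type cannot be told apart. The summed endothelial markers were 14.7 to 17.7 FPKM in vehicle, 18.3 to 19.6 with cAMP and 17.7 to 19.8 with glucagon. The single markers disagreed. With cAMP, 2 of the 7 rose (Cdh5 0.51 and Pecam1 0.26) and 1 fell (Kdr -0.54), beside 13.0% and 12.8% of all genes. With glucagon only Pecam1 passed (0.37, beside 9.35% of all genes higher). The part of endothelial cells in the Klf4 result was not tested.

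IL-13 raised Klf4 further under both stimuli. With cAMP and IL-13 the libraries stood at 1079, 1034 and 972 scaled reads, and with glucagon and IL-13 at 711, 785 and 673. Neither set overlapped the libraries of its stimulus alone, and the glucagon with IL-13 libraries spanned the range of cAMP alone. The rise was 1.41-fold over cAMP (log2 0.50 ± 0.11 SE, adjusted p = 0.0105) and 1.64-fold over glucagon (log2 0.71 ± 0.11, adjusted p = 0.000383). The glucagon result held in all 15 fits that each left out 1 library. The cAMP result held in 13 of them, with adjusted p = 0.0529 for Klf4 without cAMP replicate 3 and 0.0650 without cAMP with IL-13 replicate 1. The difference between these IL-13 effects was 0.21 on the log2 scale (95% interval -0.11 to 0.53, adjusted p = 0.998). No member passed that test of the difference, nor did any gene tested (0% called, with 608 of 12703 at an unadjusted p under 0.05). With IL-13 the Kupffer cell markers summed to 151 to 159 FPKM beside 171 to 183 with cAMP alone, and the 5 cholangiocyte markers to 634 to 649 beside 571 to 594. Over glucagon the sums were 159 to 164 beside 170.0 to 172 FPKM for Kupffer cells and 636 to 655 beside 569 to 582 FPKM for cholangiocytes, where Sox9 rose 0.47 and the leukocyte marker Ptprc fell by 0.57 on the log2 scale. These sums did not overlap, but few single markers passed. Of the 7 Kupffer cell markers, 1 fell over cAMP (Cd68, -0.23, beside 1.38% of all genes) and 0 passed over glucagon. Of the 3 cholangiocyte markers tested, 0 passed over cAMP and only Sox9 over glucagon, where 3.50% of all genes rose. Krt19 was lower in both settings without passing (-0.23 and -0.07), and Spp1 was higher without passing (0.14 and 0.13). The part of these shifts in the Klf4 result was not tested.

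Klf6, a factor first studied as a growth suppressor and an early response gene of liver injury, went the opposite way (chr13:5861482-5870394, plus strand). The vehicle libraries were at 4080, 3933 and 4356 scaled reads. They were followed by 2257, 1971 and 1968 with glucagon and 1447, 1630 and 1475 with cAMP. The 3 groups did not overlap. Klf6 fell 2.72-fold with cAMP (log2 -1.44 ± 0.06 SE, adjusted p = 3.71e-12) and 2.00-fold with glucagon (log2 -1.0 ± 0.06, adjusted p = 9.78e-10). With IL-13 the libraries stood at 1467, 1464 and 1500 beside cAMP and at 2229, 2222 and 2214 beside glucagon, within the range of the stimulus alone in both cases. The IL-13 difference was -0.04 (95% interval -0.17 to 0.09) with cAMP and 0.11 (-0.02 to 0.24) with glucagon, and neither passed the test. Both falls with the stimuli held in all 15 fits that left out 1 library.

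Klf2, a factor induced by blood flow in endothelial cells, was the lowest member (chr8:72319033-72321656, plus strand). It was at 55.6, 42.3 and 32.3 scaled reads in vehicle, 50.9, 40.1 and 47.4 with cAMP, and 29.4, 48.8 and 48.5 with glucagon. These 3 groups overlapped. With IL-13 it stood at 30.1, 32.5 and 31.8 beside cAMP, below all 3 cAMP libraries, and at 28.5, 28.3 and 35.0 beside glucagon. The IL-13 differences of -0.53 (95% interval -0.99 to -0.08, adjusted p = 0.259) and -0.42 (-0.88 to 0.03, adjusted p = 0.319) did not pass the test. The summed endothelial markers were 18.9 to 19.8 FPKM with cAMP and IL-13 and 18.3 to 18.9 with glucagon and IL-13 (beside 18.3 to 19.6 and 17.7 to 19.8 without IL-13). Of the 7 markers, 1 rose and 2 fell with IL-13 in each setting. Among all genes, 2.52% rose and 1.38% fell over cAMP, and 3.50% rose and 2.23% fell over glucagon. Pecam1 rose 0.59 and 0.53 on the log2 scale, Eng was lower (-0.49 and -0.32), as was Tek over cAMP (-0.72) and Kdr over glucagon (-0.53). The part of these changes in the Klf2 values was not tested, and the cells that carry these Klf2 reads were not identified.

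**Figure D3:**
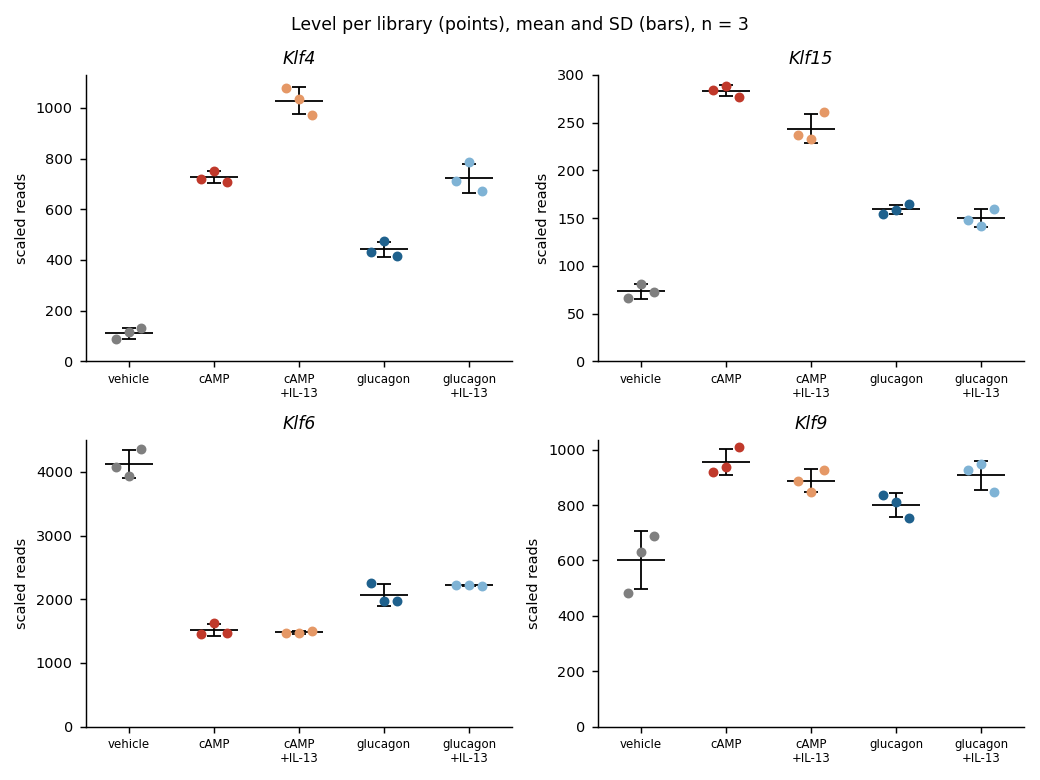
Scaled reads (y axis, from 0) of Klf4, Klf15, Klf6 and Klf9 in each of the 15 libraries, grouped along the x axis, with the mean and SD of each group in black (n = 3). Klf4 peaks with cAMP and IL-13 at a mean of 1028, Klf15 with cAMP at 283, and Klf6 is highest in vehicle at 4123.

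Klf15, the factor tied to the liver's response to fasting, rose with both stimuli and not with IL-13 (chr6:90462576-90475238, plus strand). It was at 66.1, 81.3 and 72.2 scaled reads in vehicle, 154, 159 and 164 with glucagon, and 284, 289 and 277 with cAMP. The 3 groups were fully separate. The rise was 3.84-fold with cAMP (log2 1.94 ± 0.09 SE, adjusted p = 1.57e-11) and 2.16-fold with glucagon (log2 1.11 ± 0.09, adjusted p = 5.30e-08). When IL-13 was added to cAMP, the libraries were at 238, 233 and 261, all below cAMP alone, yet the difference of -0.22 (95% interval -0.41 to -0.02) had an adjusted p of 0.300. Beside glucagon they were at 148, 141 and 159.9, with overlap and a difference of -0.09 (-0.28 to 0.11, adjusted p = 0.693).

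Enzymes linked to Klf15 in the amino acid and glucose metabolism of mouse liver were read from a list of 6 genes. Pck1, which opens the gluconeogenic branch, and Tat, which breaks down tyrosine, rose with both stimuli and fell when IL-13 was added to either, and the other 4 genes (Bcat2, Gpt, Otc and Prodh) passed no such test. Among all genes, 13.0% rose with cAMP and 9.35% with glucagon, and 1.38% and 2.23% fell with IL-13 over each. Pck1 rose 4.05 on the log2 scale with cAMP and 2.88 with glucagon, and Tat rose 3.14 and 2.34. With IL-13 over cAMP and over glucagon, the differences were -0.74 and -0.84 for Tat and -0.38 and -0.52 for Pck1. The median of the 6 genes was 0.16 with cAMP and 0.24 with glucagon, beside 0.01 and 0.02 over all genes.

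Klf9, which is induced by glucocorticoid and thyroid hormone in several tissues, rose by a smaller step (chr19:23141226-23168134, plus strand). It was at 484, 631 and 689.8 scaled reads in vehicle, 919.8, 937 and 1010 with cAMP, and 838, 810.1 and 752 with glucagon. Both stimulated groups lay above all vehicle libraries. The rise was 1.6-fold with cAMP (log2 0.68 ± 0.10 SE, adjusted p = 3.19e-05) and 1.34-fold with glucagon (log2 0.43 ± 0.10, adjusted p = 0.00410). The glucagon rise of Klf9 did not pass in a fit of the compared groups alone (adjusted p = 0.0537). IL-13 left it at 889, 847 and 929 with cAMP and at 926, 948 and 849 with glucagon, and neither difference passed. Of the 9 glucocorticoid response genes listed, 4 rose and 2 fell with cAMP (all genes: 13.0% and 12.8%) and 2 rose and 2 fell with glucagon (all genes: 9.35% and 9.53%). The medians of the list were 0.31 and 0.03, beside 0.01 and 0.02 over all genes. Their members went in both directions: with cAMP, Sgk1, a kinase of salt transport, rose 0.92 on the log2 scale, and Fkbp5, a chaperone of the receptor, fell by 0.41.

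Klf13, first described as an activator of a chemokine gene in T cells, was lower with cAMP in a result that hung on single libraries (chr7:63886351-63938915, minus strand). The vehicle libraries were at 1079, 1578 and 1608 scaled reads, so vehicle a lay far under the others and within the range of the cAMP libraries at 1099, 1019 and 1125. The groups overlapped. With cAMP, Klf13 fell by 0.37 on the log2 scale (± 0.12 SE, adjusted p = 0.0355), and the fall did not pass without vehicle b (0.132), without vehicle c (0.138) or without any 1 of the cAMP libraries (0.0737, 0.115 and 0.0592), nor in a fit of the compared groups alone (0.130). Adding IL-13 gave 1362, 1260 and 1402 with cAMP and 1642, 1685 and 1371 with glucagon, above all libraries of the stimulus alone (1245, 1233 and 1127 for glucagon). These differences of 0.31 (adjusted p = 0.251) and 0.38 (adjusted p = 0.0950) did not pass with all libraries. Without vehicle a, Klf13 passed in both (adjusted p = 0.00665 and 0.000930), and also in its fall with glucagon (-0.41, adjusted p = 0.000463).

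Klf3, the CtBP-binding member, varied little (chr5:64803388-64832901, plus strand). It was at 1000, 1293 and 1375 scaled reads in vehicle and at 954, 1012 and 977 with glucagon, where vehicle a fell within the glucagon range. With glucagon it fell by 0.30 on the log2 scale (± 0.09 SE, adjusted p = 0.0169), a result lost without vehicle b (0.0722), vehicle c (0.0874) or glucagon replicate 1 (0.0593), and in a fit of the compared groups alone (0.130). Without vehicle a, Klf3 was also lower with cAMP (-0.24, adjusted p = 0.00352) and higher with IL-13 over glucagon (adjusted p = 0.0157). With cAMP it was at 1126, 1112 and 1151, and with IL-13 at 1104, 1135 and 1064 beside cAMP and 1147, 1162 and 1077 beside glucagon. An exon of Klf3 overlaps the antisense gene Gm20033 in GENCODE M21, and whether counting used strand is not given in the sources used, so their reads cannot be told apart. No other member has an overlapping exon.

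Klf16, one of the less studied SIN3-binding members, was at 412, 471 and 477 scaled reads in vehicle (chr10:80567124-80577321, minus strand). With glucagon it stood at 329, 416 and 372, overlapping vehicle. The glucagon difference of -0.29 on the log2 scale (± 0.09 SE, adjusted p = 0.0395) passed in 8 of the 15 fits that left out 1 library, with a highest adjusted p of 0.189 without glucagon replicate 1. Klf16 also missed the threshold without vehicle b (0.113), vehicle c (0.115), cAMP replicate 1 (0.0507), cAMP with IL-13 replicate 1 (0.0517), glucagon replicate 3 (0.0880) or glucagon with IL-13 replicate 2 (0.0508), in a fit of the compared groups alone (0.145), and with no filter on low values (0.0591). In the other groups it ranged from 366 to 439 scaled reads.

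Klf10 and Klf11, SIN3-binding members described as early genes of TGF-beta signalling, did not rise or fall with either stimulus alone. Klf10 (chr15:38291463-38300706, minus strand) was at 607, 591 and 635 scaled reads in vehicle, 642, 594 and 665 with cAMP, and 594, 623 and 582 with glucagon. It was highest with cAMP and IL-13, at 744, 742 and 697, above all 3 cAMP libraries, and the IL-13 difference was 0.20 (95% interval 0.07 to 0.33, adjusted p = 0.0978). Glucagon with IL-13 gave 675, 638 and 646. Klf11 (chr12:24651274-24662789, plus strand) was at 134, 140.4 and 137 in vehicle, 163, 153 and 169 with cAMP, and 142, 117 and 94.0 with glucagon. Its IL-13 libraries were at 133, 151 and 139 beside cAMP and 144, 148 and 159 beside glucagon. For Klf11 the IL-13 difference over glucagon was 0.37 (adjusted p = 0.0904) with all libraries and passed without glucagon replicate 1 (0.0137), as did a fall with glucagon (-0.39, adjusted p = 0.0245).

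Of the 9 other early TGF-beta genes listed, 4 rose and 2 fell with cAMP (all genes: 13.0% and 12.8%) and 3 rose and 2 fell with glucagon (all genes: 9.35% and 9.53%). With IL-13, 2 rose and 1 fell over cAMP (all genes: 2.52% and 1.38%) and over glucagon (all genes: 3.50% and 2.23%). Smad7, an inhibitor of the pathway, rose 0.72 with IL-13 over cAMP and 0.72 over glucagon on the log2 scale. Id1, an inhibitor of bHLH factors, fell by 1.86 with cAMP and fell by 2.13 with glucagon. The medians of the list were 0.08, 0.13, 0.03 and 0.15 in these 4 comparisons, beside -0.002 to 0.02 over all genes.

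**Figure D4:**
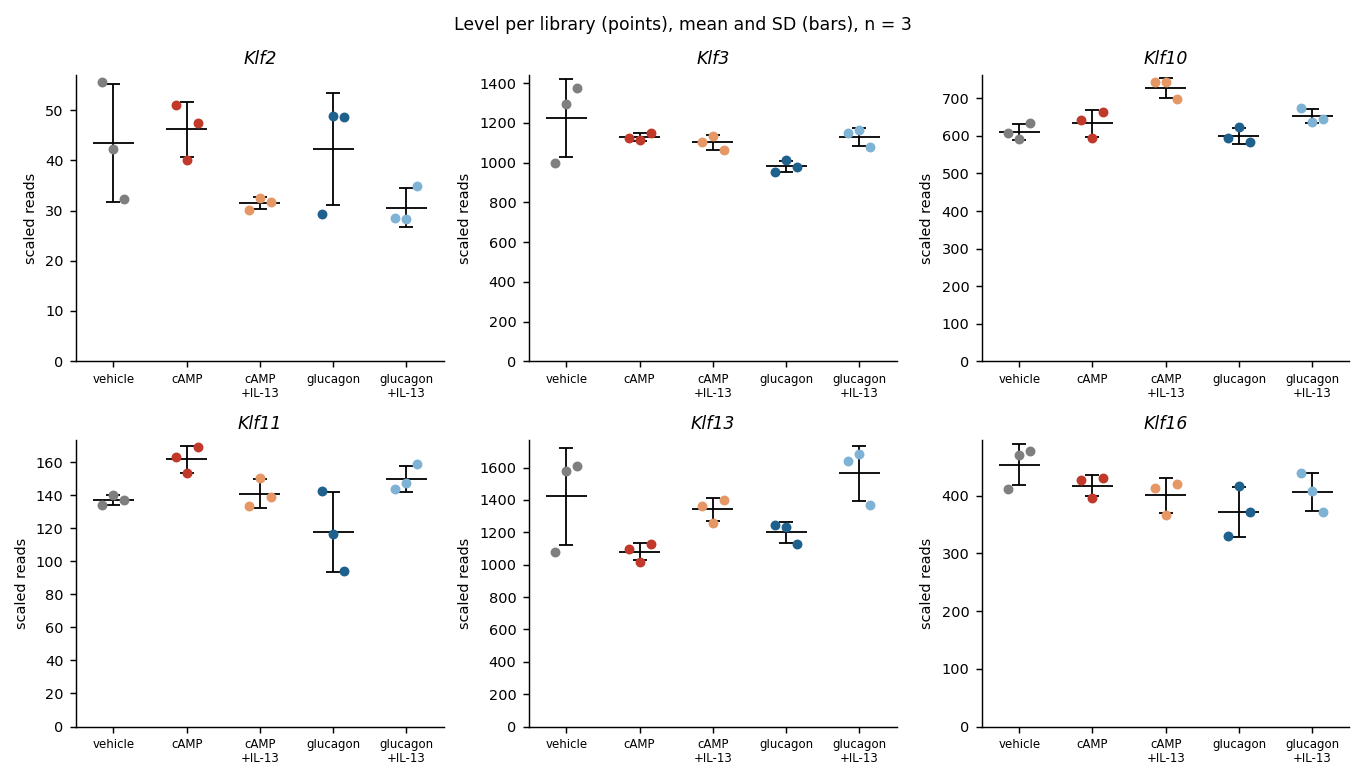
Scaled reads (y axis, from 0) of Klf2, Klf3, Klf10, Klf11, Klf13 and Klf16 in each library by group, with the mean and SD in black (n = 3). The vehicle points of Klf13 run from 1079 to 1608, and Klf10 is highest with cAMP and IL-13 at a mean of 728.

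The stimuli were next compared with each other, cAMP at 100 µM and glucagon at 100 nM, each given at that dose only. Of the 10 members, 1 was higher with glucagon (Klf6, beside 1.76% of all genes) and 3 were lower (Klf15, Klf4 and Klf11, beside 2.51%). The log2 differences, glucagon minus cAMP, were -0.83 for Klf15 (adjusted p = 1.85e-05), -0.72 for Klf4 (adjusted p = 0.000369) and 0.44 for Klf6 (adjusted p = 0.000201). These 3 results held in all 15 fits that left out 1 library. For Klf4, Klf15 and Klf6 the glucagon libraries thus lay between vehicle and cAMP with no overlap. The difference for Klf11 was -0.48 (± 0.12 SE, adjusted p = 0.0282), which was lost without cAMP replicate 1 (0.0986), cAMP replicate 3 (0.121), glucagon replicate 2 (0.0762) or glucagon replicate 3 (0.159), and in a fit of the 2 groups alone (0.0812). Without vehicle a, Klf9 and Klf3 were also lower with glucagon than with cAMP (adjusted p = 0.0147 and 0.0176).

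Against vehicle, the combined treatments gave 4 rises (Klf4, Klf15, Klf9 and Klf10, beside 13.3% of all genes) and 1 fall (Klf6, beside 12.9%) for cAMP with IL-13. For glucagon with IL-13 there were 3 rises (Klf4, Klf15 and Klf9, beside 10.7%) and 1 fall (Klf6, beside 9.82%). Scaling by library size alone gave the same counts of members, beside 1144 genes higher and 2299 lower for cAMP with IL-13 (in place of 1686 and 1642) and 1053 higher and 1582 lower for glucagon with IL-13 (in place of 1365 and 1248). Klf4 reached 9.29-fold over vehicle with cAMP and IL-13 (log2 3.22, adjusted p = 9.32e-14) and 6.53-fold with glucagon and IL-13 (log2 2.71, adjusted p = 1.49e-12). Klf15 remained 3.31-fold and 2.04-fold above vehicle, and Klf6 2.79-fold and 1.85-fold below it. Klf10 rose by 0.25 on the log2 scale (± 0.06 SE, adjusted p = 0.00568), a rise that held in all 15 fits that left out 1 library. Without vehicle a, Klf3 was lower than vehicle in both combined treatments (adjusted p = 0.000992 and 0.00415) and Klf13 with cAMP and IL-13 (adjusted p = 0.0194).

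The order of the groups differed between the 3 members with the widest range. Klf4 ran from cAMP with IL-13 through cAMP and glucagon with IL-13, which overlapped, to glucagon and vehicle. Klf15 ran from cAMP through cAMP with IL-13 to glucagon and glucagon with IL-13, which overlapped, and then vehicle. Klf6 ran from vehicle to the overlapping glucagon groups and then to the overlapping cAMP groups. Other genes were ranked by how close their 5 centred group means on the log2 scale came to these patterns, among 9201 tested genes with a mean of at least 100 scaled reads, with the root mean square difference as the measure. For Klf4 the nearest were Socs3, a STAT-induced inhibitor of cytokine signalling (0.18), Tnfaip6, a secreted hyaluronan-binding protein (0.26), and Usp2, a ubiquitin protease (0.26). For Klf15 they were Ypel2 (0.04), Efna1, an ephrin ligand (0.10), and Procr, the protein C receptor (0.14). For Klf6 they were Otud1, a deubiquitinase (0.07), Cyr61, a matricellular protein (0.08), and Zyx, an adhesion protein (0.09). Over 5 group means such likeness is a description of shape. These genes were chosen for their likeness, so their own differences are given with no test: for IL-13 over cAMP and over glucagon they were 0.43 and 0.68 for Socs3, 0.64 and 0.05 for Tnfaip6, and 0.35 and 0.04 for Usp2, beside 0.50 and 0.71 for Klf4.

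**Figure D5:**
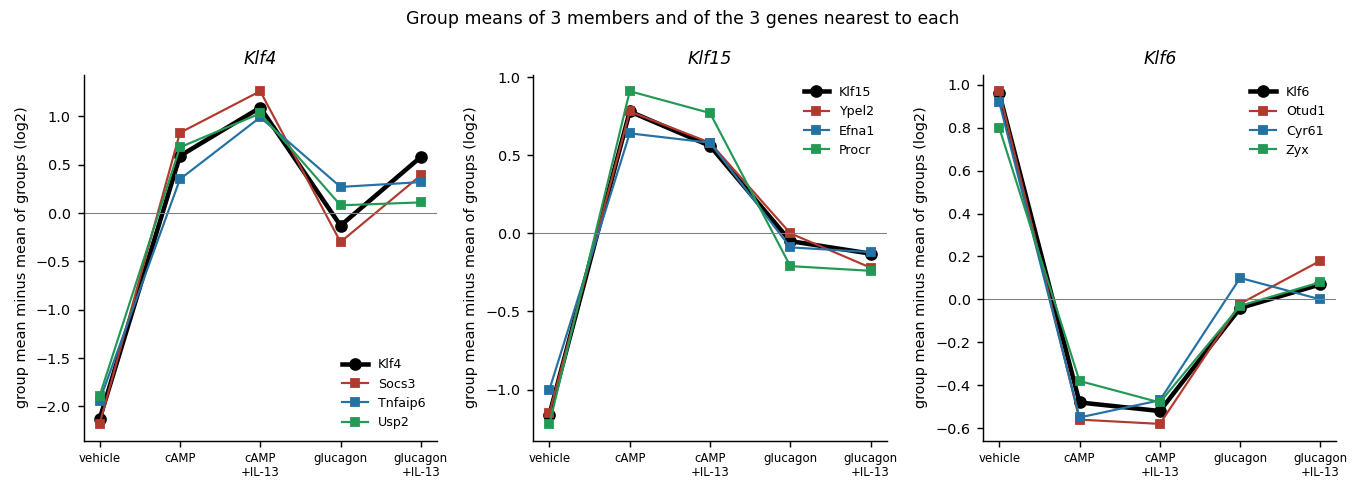
Group means of Klf4, Klf15 and Klf6 (black) and of the 3 nearest genes to each (colours), as log2 values minus the mean of the 5 groups, with the groups along the x axis. Klf4 runs from -2.13 in vehicle to 1.09 with cAMP and IL-13, and Klf6 from 0.96 in vehicle to -0.52 with cAMP and IL-13.

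Cofactors and other relatives of the family were then read. Of 18 partner genes, all tested, 2 rose and 2 fell with cAMP, close to the 13.0% and 12.8% of all genes, so the count says nothing particular to them. With glucagon 4 rose and 3 fell (all genes: 9.35% and 9.53%), and the medians were 0.004 and 0.04 beside 0.01 and 0.02 over all genes. Fhl3, a LIM protein that binds Klf3 and CtBP, fell by 2.05 on the log2 scale with cAMP and fell by 1.67 with glucagon, and rose 0.45 with IL-13 over glucagon (adjusted p = 0.00124). Sap30 and Hdac3, parts of corepressor complexes, rose 0.35 and 0.26 with cAMP and 0.36 and 0.29 with glucagon. Smurf1, a ubiquitin ligase, fell by 0.25 with cAMP, and Siah1a, another ubiquitin ligase, fell by 0.37 with glucagon. Of 6 genes known as targets of Klf2 in endothelial cells, 2 rose and 3 fell with cAMP (all genes: 13.0% and 12.8%) and 1 rose and 3 fell with glucagon (all genes: 9.35% and 9.53%), with medians of -0.22 and -0.26 beside 0.01 and 0.02 over all genes. Thbd, the thrombin receptor thrombomodulin, rose 2.13 with cAMP, and Edn1, the vasoconstrictor endothelin, fell by 1.38, while Klf2 itself passed in neither comparison.

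Of 16 other KLF and SP factors, 8 were tested and the other 8 (Klf8, Klf14, Klf17, Sp5, Sp6, Sp7, Sp8 and Sp9) were below the filter. Sp4 rose, and Klf5 and Sp2 fell, with cAMP and with glucagon alike (1 rise and 2 falls of 8, beside 13.0% and 12.8% of all genes with cAMP and 9.35% and 9.53% with glucagon), and none of the 8 passed for IL-13. The medians of the 8 genes were -0.21 and -0.14 with the stimuli, beside 0.01 and 0.02 over all genes. Klf5, a factor of proliferating epithelia, was at 65.1, 102 and 107 scaled reads in vehicle, 7.13, 8.25 and 11.6 with cAMP, and 16.3, 24.4 and 19.6 with glucagon. It fell by 3.20 on the log2 scale with cAMP (adjusted p = 5.36e-07) and fell by 2.12 with glucagon (adjusted p = 0.000111), with no overlap with vehicle in either. The 3 cholangiocyte markers tested fell with cAMP as well (Krt19 -0.97, Sox9 -0.26, Spp1 -0.16) and did not pass with glucagon, and their part in the Klf5 result was not tested. Klf5 and Klf4 thus moved in opposite directions under both stimuli.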

How the data were processed

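RNA of 15 hepatocyte libraries was sequenced as single-end reads. Per the labels and the methods of the study, the authors used TopHat 1.3.2 for alignment to mm10, Cufflinks 2.0.2 for levels per gene and edgeR for their own calls. The annotation and strand setting are not given in the sources used here. The deposited signal table holds the authors' estimated reads multiplied by 1 factor per library (scaled reads). Between 98.2% and 98.9% of low values were whole reads within 0.1 after dividing by each library's step (0.797 to 1.25). The deposited FPKM table was made by the authors per kilobase of exon and in proportion to the mapped reads, and it was used for levels between genes and as an alternative. Shortened copies of both tables, equal in all 23062 shared entries, were not used. Groups were taken from titles and treatment labels. The description field, which names the cAMP libraries controls, was not followed. The vehicle columns match their group but no single sample and are called a, b and c.

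Scaled reads were fitted with limma 3.58.1 in R 4.3.3 as log2(scaled reads + 1) with 1 mean per group over all 15 libraries, a variance trend and the robust option, giving 10 residual degrees of freedom before moderation. The p-values were adjusted by Benjamini-Hochberg over the 12703 genes with at least 10 scaled reads in 3 libraries, with a threshold of 0.05. The limma fit was tried on simulated counts with the same spread in every library. That setting holds no outlying library such as vehicle a, so it does not test the calls that hang on vehicle a. Alternatives were other pseudocounts and filters, scaling by library size, FPKM, the compared groups alone, a replicate block, and each library left out. The members and gene lists were chosen with earlier results of these data known. Named are the 10 members, at most 2 rises and 2 falls per list and comparison, the 3 genes nearest to each member spanning at least 1 log2 unit over the group means, and G6pc, Pck1 and Cish. Other list genes are named without values. Coordinates are from GENCODE M21 (GRCm38).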

Additional observations from a re-analysis of the deposited data

How the results depend on the processing

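Of 1912 values of single members under the alternatives, 1845 kept their direction and their side of the threshold, 27 lost the threshold, 25 gained it and 15 changed sign. None of the 15 belonged to a called result, and their log2 differences were at most 0.16 in size. With FPKM, Klf2 with cAMP became -0.0059. With scaling by library size alone, Klf10 with cAMP became -0.00042 and Klf11 with cAMP and IL-13 against vehicle -0.034. When 1 library was left out, Klf2 ran from -0.077 to 0.31 with cAMP, from -0.23 to 0.20 with glucagon, from -0.27 to 0.083 for glucagon against cAMP and from -0.13 to 0.23 for the difference of the IL-13 effects. Klf10 ran from -0.054 to 0.0014 with glucagon. For IL-13 over cAMP, Klf6 ran from -0.070 to 0.016 and Klf16 from -0.10 to 0.00035. Against vehicle, Klf11 ran from -0.012 to 0.075 and Klf13 from -0.25 to 0.038 with cAMP and IL-13, and Klf13 from -0.030 to 0.26 with glucagon and IL-13.

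When only the groups compared were fitted, the members called numbered 4 for cAMP, where Klf13 was lost (adjusted p = 0.130), 3 for glucagon and 2 for IL-13 over each stimulus, where Klf13 joined Klf4 (adjusted p = 0.00151 and 0.00323). All genes called were then 2042 for cAMP, 1294 for glucagon and 1551 for glucagon with IL-13 against vehicle. They were 963 for IL-13 over cAMP, 892 for IL-13 over glucagon, and 4 for the difference of the IL-13 effects. The latter count was 1 with FPKM. Leaving out 1 library gave 0 to 2 members for IL-13 over cAMP and 1 to 3 for IL-13 over glucagon. For all genes it gave 282 to 765 and 430 to 1218 in these comparisons, 355 to 899 for glucagon against cAMP and 0 to 2 for the difference of the IL-13 effects. The highest counts came without vehicle a. The fits over the 12 stimulated libraries were run with and without the replicate number as a block, the latter chosen after seeing the data. With the replicate block, 2 members passed for IL-13 over cAMP, 3 for IL-13 over glucagon and 6 for glucagon against cAMP. All genes called were then 661, 1009 and 739, in place of 495, 728 and 543 in the main fit, so calls rose over all genes too. For the difference of the IL-13 effects, 1 gene of all passed with this block. Without it, the members were again 2, 3 and 6, and all genes called were 780.0, 1241, 918 and 4. Deviations of same-numbered libraries correlated between -0.47 and 0.49, with 6 of 18 pairs over 0.1. Those of different-numbered libraries correlated between -0.55 and 0.54, with 8 of 36 pairs over 0.1. Deviations from a group mean are not independent of each other, so these values cannot decide whether the numbers pair the libraries. The vehicle columns carry no sample number.

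With a minimum mean of 30 scaled reads, Plagl1 (0.24) joined the genes nearest to Klf4 and Tmem51 (0.07) those nearest to Klf6. The planned edgeR and DESeq2 fits were not run, because the deposited values are scaled and not all of them came back as whole reads, and levels per transcript length were taken from FPKM since the tables give no lengths. A filter of 50 scaled reads removed Klf2, which ran from 28.3 to 55.6 scaled reads and has the widest intervals of the members. The smallest p that 3 libraries against 3 allow in an exact permutation test is 0.1, so the calls rest on the spread shared across genes and groups.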
